A study of Mus musculus with 12 samples.

Results

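The 41 genes described here are those of glucose transport, glycolysis, lactate formation and transport, pyruvate entry into mitochondria and the pentose phosphate pathway. They were taken as a list of gene symbols from the RNA-seq of mouse mural granulosa cells (MGCs) and cumulus cells. No limit on their values was set, but the list was chosen with earlier results of these data known. All 41 symbols were found among the 26382 genes listed for both cell types, on 42 rows, because Aldoa has a second Ensembl row near 0 FPKM. There were 12 libraries, 3 in each of 4 groups: WT MGCs, Sphk1/2gc-/- MGCs, WT cumulus cells and Sphk1/2gc-/- cumulus cells, all collected 2 h after hCG (human chorionic gonadotropin, which acts at the LH receptor) from immature females that had been primed with eCG. The Sphk1/2gc-/- mice were Sphk1-/-; Sphk2 fl/fl; Fshr-Cre, so that Sphk1, a sphingosine kinase gene, was lost in the whole body and Sphk2 was deleted where Fshr-Cre is active, in granulosa cells. The sample titles read Control and Sphk1/2 knockout, and these samples are called WT and Sphk1/2gc-/- here, after the study's names for its mice. The study's WT mice were purchased C57/BL6, and no source used here says whether the controls carried the floxed allele or the Cre. The comparison addressed how loss of both sphingosine kinases alters the transcripts of the somatic follicle cells after an ovulatory stimulus.

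Glycolysis splits glucose into pyruvate in the cytosol. Glucose enters through transporters of the Slc2a family and is trapped by hexokinase, and phosphofructokinase 1 commits it to the pathway. Lactate dehydrogenase turns pyruvate into lactate, monocarboxylate transporters move it across the membrane, and the pyruvate dehydrogenase complex and its inhibitory kinases set how much pyruvate is oxidised. Mouse oocytes take up little glucose themselves, and cumulus cells are known to metabolise it and to pass pyruvate to the oocyte through gap junctions.

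Values are FPKM, fragments scaled by library depth and by the joined length of all annotated exons of a gene. For the phosphofructokinase genes Pfkp, Pfkl and Pfkm this length is 13401, 6675 and 3340 bases. It can exceed the length of the transcript present, by an amount that differs between genes. Levels set against each other between genes are therefore approximate, and so are isoform shares and sums over isoforms. Sequencing depth, read back from the steps of the values, was 16100365 to 19761604 fragments per library. Genotype was tested with limma on log2(FPKM + 1) wherever some group averaged 0.5 FPKM or more. A gene passed when its p, adjusted by Benjamini-Hochberg over every gene tested, was 0.05 or below. A log2 difference on this scale understates the change of genes with low FPKM. Nothing in the descriptions says that the 3 libraries of a group came from separate animals, so these p-values measure only the spread between libraries. The 3 WT MGC libraries held Sphk1 at 1.68, 1.88 and 0.460 FPKM, and those labelled Sphk1/2gc-/- at 0.432, 0.557 and 0.104. In cumulus cells it was 0.0911, 0.0699 and 0.0954 FPKM in WT and 0.0778, 0.456 and 0.557 in the libraries labelled Sphk1/2gc-/-, so Sphk1 overlapped between the labels in both cell types, in MGCs through WT library 3, and directions rest on the labels. Sphk2, of which exons outside the deleted part are also counted, overlapped between the genotypes in both cell types. The third Sphk1/2gc-/- MGC library stood apart, with correlations of 0.912 to 0.939 to the other MGC libraries over 15279 genes, where the closest pair reached 0.986. WT cumulus library 3 also stood apart, with 27541 genes above 0 where the other 5 cumulus libraries had 18788 to 19289. Without it 8 of the 9 members that passed between the genotypes in cumulus cells still did, all but Pfkl, where 17.6% of all genes passed.

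In the cumulus libraries labelled Sphk1/2gc-/-, Slc2a1, Hk2 and Pfkfb2 of the upper part of glycolysis rose, and Pfkl, Aldoc, Tpi1, Pgk1, Eno1 and Pdk1 fell. The transcripts of the glucose transporter Slc2a1 and of hexokinase Hk2 stood at 2.97 and 3.08 times their mean FPKM in WT, and those of Tpi1, Pgk1 and Aldoc at 0.400, 0.385 and 0.171 times. Of 35 member rows tested, 3 passed as higher and 6 as lower, where 9.66% of all 12205 genes tested passed as higher and 12.7% as lower. The median log2 difference over the members was -0.38, beside -0.06 over all genes. With 9 of 35 the members passed at a share near that of all genes, 22.3%, and no statement about the pathway as a whole is drawn from it. In bulk RNA, fewer cells of a type and less RNA per cell cannot be told apart. Rows without a test in cumulus cells, because no group reached the filter, were Slc2a3, Slc2a4, Hk1, Pfkfb4, Eno2, Pdk2 and the second row of Aldoa.

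The sequences just before the start of 3 of these genes are shown because they belong to members that moved in opposite directions in cumulus cells and hold the same short motif. They are RefSeq promoter windows in build GRCm38.p6, Slc2a1 at chr4:119108495-119108713 (plus strand), Hk2 at chr6:82774455-82774704 (minus strand) and Pgk1 at chrX:106186850-106187099 (plus strand). Each is printed 5′ to 3′ in the direction of transcription, and that of Slc2a1 is cut after its last core, where a longer annotated transcript begins. Capitals mark ACGTG or GCGTG on either strand, the core letters of sites bound by the hypoxia-inducible factor HIF-1.
Slc2a1: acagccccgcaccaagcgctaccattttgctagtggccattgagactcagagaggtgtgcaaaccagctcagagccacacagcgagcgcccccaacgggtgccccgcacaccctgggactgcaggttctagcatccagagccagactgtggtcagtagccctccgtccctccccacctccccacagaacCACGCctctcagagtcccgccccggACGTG
Hk2: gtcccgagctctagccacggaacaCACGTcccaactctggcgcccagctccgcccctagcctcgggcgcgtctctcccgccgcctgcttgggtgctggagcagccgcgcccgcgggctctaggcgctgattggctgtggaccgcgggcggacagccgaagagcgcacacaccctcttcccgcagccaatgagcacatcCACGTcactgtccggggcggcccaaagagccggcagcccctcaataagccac
Pgk1: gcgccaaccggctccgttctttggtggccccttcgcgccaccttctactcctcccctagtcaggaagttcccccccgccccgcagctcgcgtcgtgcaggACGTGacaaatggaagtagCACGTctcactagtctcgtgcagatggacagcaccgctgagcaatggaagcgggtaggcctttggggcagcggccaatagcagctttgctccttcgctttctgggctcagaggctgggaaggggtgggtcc
Each of the 3 printed stretches held 2 cores. In the windows from 250 bases before to 50 bases after the start, at least 1 of these cores was present for 35 of the 38 members found in the promoter table, or 92.1%, and for 46.7% of the 27025 gene symbols with a promoter. Some genes have several windows, and by window the shares were 76.3% of 59 and 43.8% of 32851. GGGCGG, the GC box, was present for 73.7% of members and 38.2% of all symbols, TGACG, the short form of the CREB site, for 28.9% and 23%, and CACGTG, the E-box that itself holds ACGTG, for 15.8% and 8.09%. All 3 members that rose in cumulus cells and 5 of the 6 that fell held at least 1 HIF-1 core; the single window of Tpi1 held none. A match describes letters and is not evidence of binding.

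Glucose entry was led by a single transporter. Slc2a1 (GLUT1, chr4:119108711-119137983) read 11.4, 10.9 and 16.7 FPKM in WT cumulus cells and 37.6, 28.2 and 50.2 in Sphk1/2gc-/- cumulus cells. The lowest Sphk1/2gc-/- library was above the highest WT library, and the difference passed the test (log2 difference 1.49, SE 0.244, adjusted p = 0.00552 by limma, 2.97-fold in mean FPKM). In MGCs the same transcript overlapped between genotypes, at 37.0, 35.7 and 32.4 FPKM in WT and 42.9, 37.8 and 22.2 in Sphk1/2gc-/-, so the 3 Sphk1/2gc-/- cumulus values lay in or above the range of MGCs. Slc2a8, an intracellular hexose transporter, overlapped at 0.426 to 0.711 FPKM in WT and 0.410 to 0.546 in Sphk1/2gc-/- cumulus cells. Slc2a3, a transporter of high affinity, was at most 0.129 FPKM in every cumulus library, and the insulin-responsive transporter Slc2a4 was listed at 0 in 5 of the 6. Of the 4 transporters, Slc2a1 held 93.1% to 95.5% of the summed FPKM in WT cumulus cells and 98.3% to 98.9% in Sphk1/2gc-/- cumulus cells.

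Hk2 (chr6:82725025-82774454), the hexokinase that phosphorylates glucose in growing and hormone-stimulated cells, read 3.84, 5.60 and 6.78 FPKM in WT cumulus cells. In Sphk1/2gc-/- cumulus cells it read 19.4, 15.4 and 15.2. The groups did not overlap, and the log2 difference was 1.48 (SE 0.205, adjusted p = 0.00312, 3.08-fold in mean FPKM). Hk1, the constitutive hexokinase of many tissues, was at most 0.0868 FPKM in cumulus cells of either genotype, so Hk2 made up 98.7% to 99.9% of hexokinase FPKM there. Glucose phosphate isomerase Gpi1, the next enzyme, overlapped between genotypes (37.7, 54.4 and 49.1 FPKM in WT, 38.7, 27.7 and 35.7 in Sphk1/2gc-/-) and did not pass.

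At the committed step 1 of 3 subunits tested passed as lower and 1 of 3 regulators as higher. Pfkl (chr10:77986947-78010083), the liver-type subunit of phosphofructokinase 1, fell from 5.06, 5.92 and 5.83 FPKM to 3.52, 2.32 and 3.21 (log2 difference -0.73, SE 0.164, adjusted p = 0.0174). The groups did not overlap, but the call was lost in 3 of the 6 fits that each left out 1 library (without WT libraries 2 or 3 or Sphk1/2gc-/- library 2). Pfkp, the platelet type and the most abundant subunit in cumulus cells, stood at 8.44 to 9.03 FPKM in WT and 5.03 to 7.91 in Sphk1/2gc-/- without passing. Pfkm, the muscle type, overlapped (0.630 to 1.10 against 0.308 to 0.793 FPKM). The Pfkfb genes encode the enzymes that make and remove fructose 2,6-bisphosphate, the activator of phosphofructokinase 1. Pfkfb2 read 0.950, 1.04 and 1.59 FPKM in WT and 1.87, 2.81 and 3.47 in Sphk1/2gc-/- cumulus cells. Every Sphk1/2gc-/- library was above every WT library, and the difference passed (log2 difference 0.75, SE 0.201, adjusted p = 0.0322), although it was lost in 4 of 6 fits without 1 library (WT 1 or 2, Sphk1/2gc-/- 2 or 3). Its exons overlap those of Gm29427 and Yod1, as those of Slc2a1 overlap Gm12868 and those of Tpi1 overlap Spsb2 over shorter stretches, so that such reads are uncertain where counting does not use strand. Pfkfb3, a form with high kinase activity, did not pass (2.92 to 4.72 FPKM against 3.57 to 11.7), and Pfkfb1 and Pfkfb4 were at most 1.15 FPKM in every cumulus library.

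**Figure D1:**
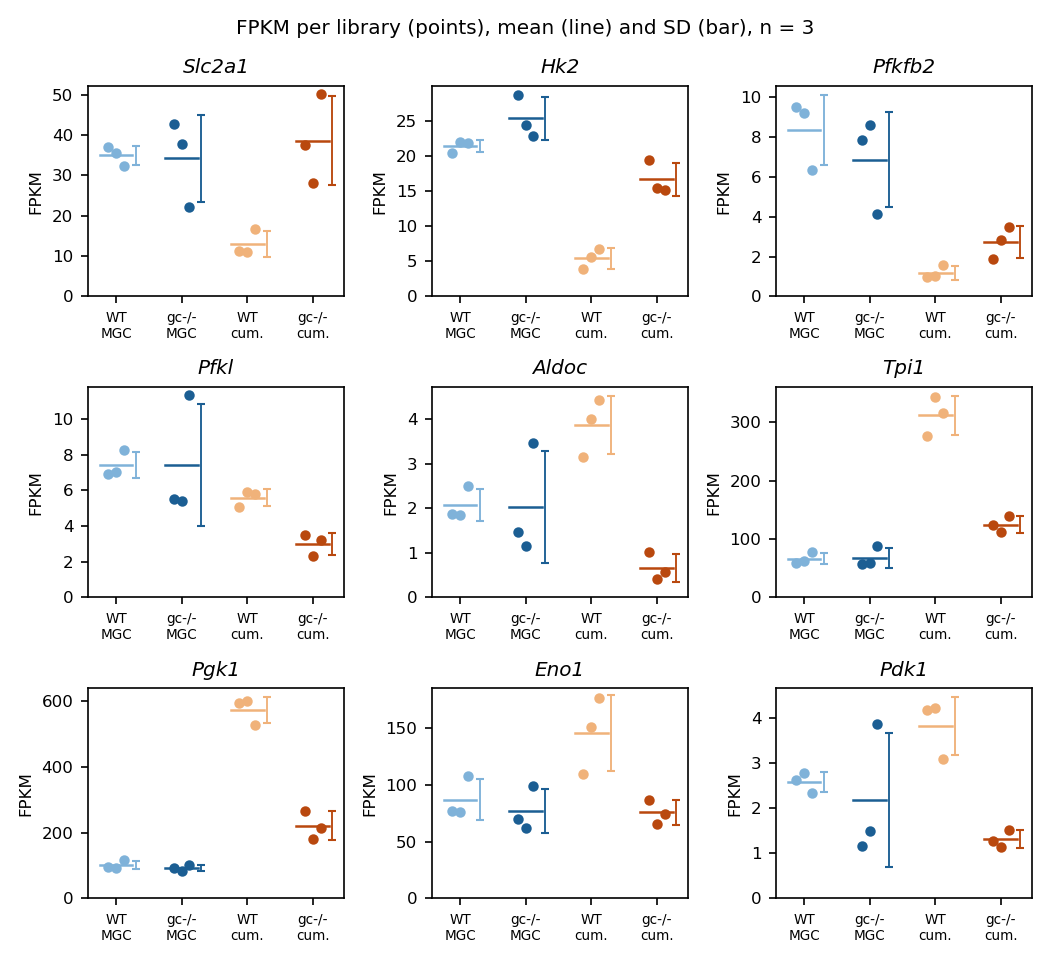
FPKM of the 9 members that passed in cumulus cells, by library (points) with the group mean (line) and SD (bar), n = 3 in each group; each panel has its own axis in FPKM starting at 0, MGC and cum. are mural granulosa and cumulus cells, and gc-/- stands for Sphk1/2gc-/-. In cumulus cells the 3 Sphk1/2gc-/- points lie above all WT points for Slc2a1, Hk2 and Pfkfb2 and below all of them for the other 6, while in MGCs the genotypes overlap for every gene but Hk2.

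From aldolase to pyruvate kinase, 4 of 10 rows tested in cumulus cells passed, and all 4 were lower, where 12.7% of all genes passed as lower. Aldoc (chr11:78322968-78327781), the brain-type aldolase, read 3.16, 4.01 and 4.43 FPKM in WT and 1.01, 0.419 and 0.559 in Sphk1/2gc-/- cumulus cells. All 3 Sphk1/2gc-/- libraries were far below the lowest WT library, and Aldoc had the most negative log2 difference among the members (-1.56, SE 0.182, adjusted p = 0.00169, mean FPKM 5.84 times as high in WT). Aldoa, the muscle-type aldolase, was the main isoform at 97.2% to 97.7% of aldolase FPKM in WT and 99.1% to 99.6% in Sphk1/2gc-/- cumulus cells; its own FPKM (137, 137 and 176 against 107, 111 and 130) did not pass.

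Tpi1 (triose phosphate isomerase, chr6:124810586-124814296) read 276, 343 and 315 FPKM in WT cumulus cells and 123, 112 and 139 in Sphk1/2gc-/- cumulus cells. The log2 difference was -1.31 (SE 0.157, adjusted p = 0.00179), with no overlap. Pgk1 (phosphoglycerate kinase, which makes the first ATP of the pathway, chrX:106187100-106203699) read 593, 599 and 526 FPKM in WT and 267, 179 and 215 in Sphk1/2gc-/- cumulus cells. Every Sphk1/2gc-/- library was below every WT library. The log2 difference was -1.39 (SE 0.177, adjusted p = 0.00232, mean FPKM 2.60 times as high in WT). Eno1 (alpha enolase, chr4:150236721-150248879) read 110, 151 and 177 FPKM in WT and 87.0, 65.6 and 74.8 in Sphk1/2gc-/- cumulus cells. These groups did not overlap either (log2 difference -0.92, SE 0.206, adjusted p = 0.0168), but the call was lost without WT library 2 or Sphk1/2gc-/- libraries 2 or 3. Eno1b, a near-identical copy of Eno1, read 0.317 to 2.22 FPKM, and its level is uncertain where the counting could split their reads. Eno2, the neuronal enolase, was at most 0.118 FPKM, and Eno3, the muscle enolase, overlapped at 1.68 to 2.65 and 1.98 to 2.55 FPKM. Pgam1 (phosphoglycerate mutase) and Pkm (pyruvate kinase) overlapped between genotypes, with Sphk1/2gc-/- library 1 inside the WT range for both (Pgam1 219 FPKM beside 180 to 230 in WT, Pkm 61.2 beside 58.2 to 94.1).

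Gapdh, often used to normalise transcript and protein measurements, shares its sequence with many processed copies. It has 80 near-identical genes in the annotation, 76 of them pseudogenes, and these took 87.1% to 89.8% of the summed reads of gene and copies in cumulus cells and 58.1% to 67.8% in MGCs. The gene's own row gave 29.3, 33.3 and 30.2 FPKM in WT and 25.5, 18.1 and 21.2 in Sphk1/2gc-/- cumulus cells, without overlap and just short of the threshold (log2 difference -0.51, SE 0.166, adjusted p = 0.0599). Gene and copies together gave 1081, 1264 and 1222 CPM (reads scaled to library depth) in WT and 846, 593 and 679 in Sphk1/2gc-/- cumulus cells, again without overlap. In MGCs the summed values were 338.5 to 349.9 CPM in WT and 304 to 315.9 in Sphk1/2gc-/-. How many of these reads belong to Gapdh itself is uncertain.

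Lactate formation rested on Ldha, the lactate dehydrogenase subunit that favours pyruvate reduction. It was the most abundant member in 5 of the 6 cumulus libraries (Pgk1 was in WT library 1) and read 582, 725 and 731 FPKM in WT and 557, 311 and 391 in Sphk1/2gc-/- cumulus cells. All Sphk1/2gc-/- libraries were below all WT libraries, library 1 only narrowly, and the difference missed the threshold (log2 difference -0.73, SE 0.224, adjusted p = 0.0507). Without Sphk1/2gc-/- library 1 it passed (log2 difference -0.95, adjusted p = 0.00658), and so it did with voom on the recovered reads (adjusted p = 0.0214). More of all genes passed in those fits too, 31.9% in the former and 27.1% in the latter, beside 22.3% in the main fit. Ldhb, the subunit of tissues that oxidise lactate, read 161 to 189 FPKM in WT and 131 to 159 in Sphk1/2gc-/-, and the share of Ldha in the summed subunits overlapped, at 77.9% to 81.9% and 66.3% to 80.5%. The lactate and pyruvate transporters did not separate the genotypes. Slc16a1 (MCT1) was 40.8 to 54.4 and 41.7 to 53.4 FPKM, and Slc16a3 (MCT4) 0.771 to 1.71 and 0.599 to 0.879.

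Pyruvate entry was represented by 8 genes. Pdk1 (chr2:71873224-71903858), a kinase that inhibits the pyruvate dehydrogenase complex and a known HIF-1 target, read 4.18, 4.21 and 3.07 FPKM in WT and 1.28, 1.13 and 1.51 in Sphk1/2gc-/- cumulus cells. Every Sphk1/2gc-/- library was below the lowest WT library, and the log2 difference was -1.06 (SE 0.159, adjusted p = 0.00412). Pdk3, the most abundant of these kinases in WT cumulus cells, read 20, 20 and 20.1 FPKM in WT and 16.8, 9.58 and 12.5 in Sphk1/2gc-/- (log2 difference -0.63, adjusted p = 0.0555). It too passed without Sphk1/2gc-/- library 1 and with voom (adjusted p = 0.00783 and 0.0351). Pdk4, the kinase induced in fasting, overlapped at 13.7 to 17.8 and 11.9 to 14.8 FPKM, and Pdk2 was at most 0.123 FPKM. The dehydrogenase subunits Pdhb (108 to 121 against 73.2 to 104 FPKM) and Pdha1 (3.94 to 4.56 against 2.95 to 4.39) and the mitochondrial pyruvate carrier Mpc2 (13.0 to 16.1 against 8.78 to 12.2) did not pass. Mpc1, at 0.537 to 2.07 FPKM, shares reads with Mpc1-ps, which took 23.5% to 37.9% of their sum in cumulus cells. In the pentose phosphate pathway, which branches off to make NADPH and ribose, 0 of 4 genes passed by limma and 0 by voom, and 1, Taldo1 (165 to 237 FPKM in WT, 119 to 163 in Sphk1/2gc-/-), was below 0.05 before adjustment. G6pdx, its entry enzyme, overlapped at 15.9 to 21.6 and 15.4 to 18.1 FPKM, as did Pgd and Tkt.

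**Figure D2:**
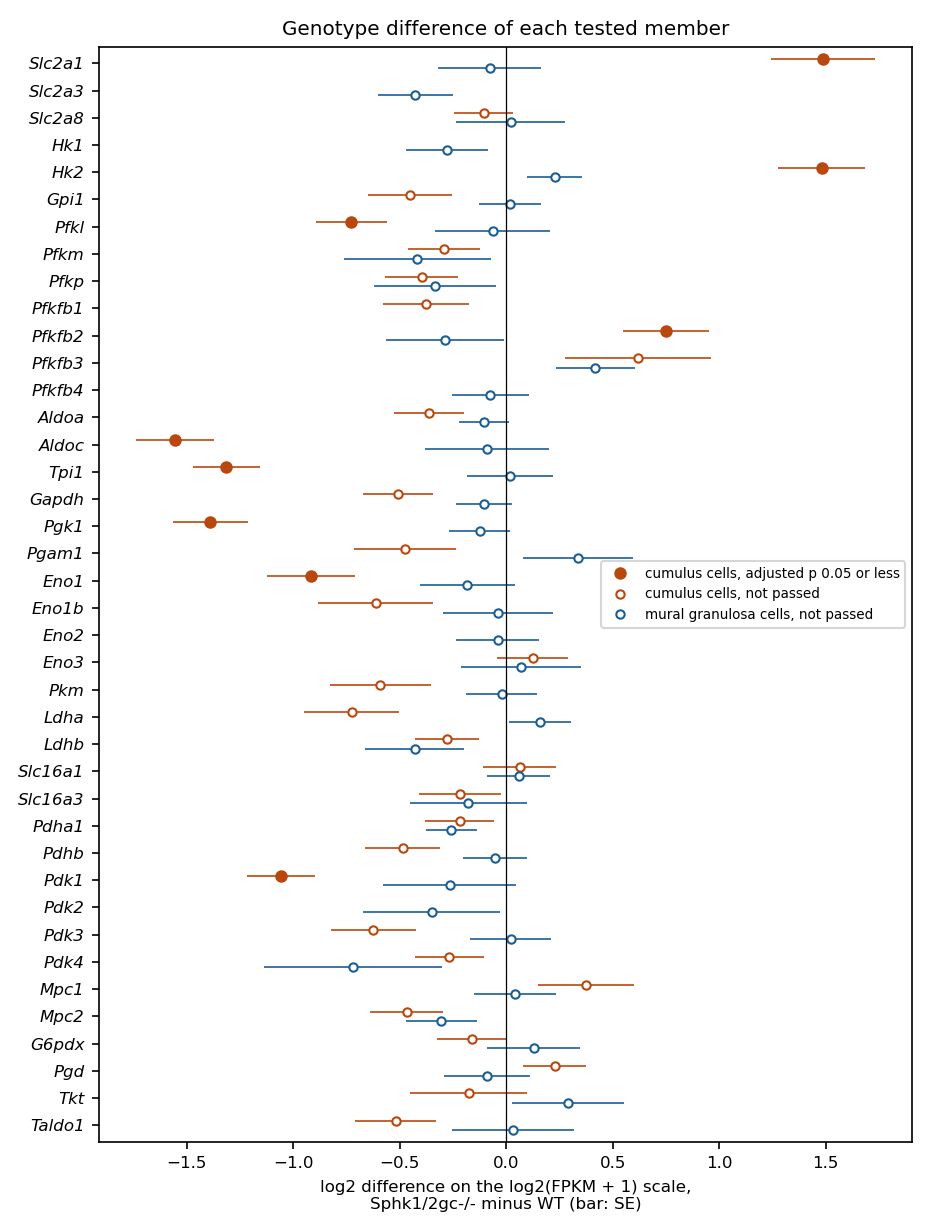
Difference between Sphk1/2gc-/- and WT for each tested member in cumulus cells and in MGCs, on the log2(FPKM + 1) scale with the SE as bars (3 libraries per group); filled points passed at an adjusted p of 0.05 or less and open points did not. Slc2a1 and Hk2 lie near 1.5 and Pfkfb2 at 0.75, Aldoc, Tpi1, Pgk1 and Pdk1 lie beyond -1, and 0 of 39 points for MGCs are filled.

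Of the 35 rows tested in cumulus cells, 27 had a negative and 8 a positive difference. Over all genes the median log2 difference was itself -0.06 and the lower quartile -0.38, and how many were negative was not counted. Of the 9 members that passed 6 were lower, and of the 2725 genes that passed 1546 were. No lean particular to the members that passed is read from this. Among the 35 rows 15 were lower without overlap and 3 higher without overlap, where 24.1% and 18.2% of all genes were. Sphk1/2gc-/- cumulus library 1 bore on these counts. Without it 18 of 35 members passed, 4 higher and 14 lower, while in the same fit the share of all genes rose to 31.9% (14% higher, 17.8% lower). The 9 added were Pfkfb3 among the higher and Pfkfb1, Gapdh, Pgam1, Eno1b, Ldha, Pdhb, Pdk3 and Taldo1 among the lower. Of the 9 that passed with all libraries, 6 (Slc2a1, Hk2, Aldoc, Tpi1, Pgk1 and Pdk1) passed in each of the 6 fits without 1 library.

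Summing the isoforms of each enzyme gave 13 steps from glucose uptake to lactate transport. Glucose transport (2.86-fold) and hexokinase (3.06-fold) were higher in Sphk1/2gc-/- cumulus cells without overlap, and 7 steps were lower without overlap. Of all single genes 18.2% were higher and 24.1% lower without overlap, so the 2 higher steps are near that share. Triose phosphate isomerase, Gapdh and phosphoglycerate kinase are single genes already counted above. The lower steps were phosphofructokinase 1, aldolase, triose phosphate isomerase, Gapdh, phosphoglycerate kinase, enolase and lactate dehydrogenase, with Sphk1/2gc-/- to WT ratios of mean FPKM from 0.385 (phosphoglycerate kinase) to 0.758 (aldolase). Glucose phosphate isomerase, phosphoglycerate mutase, pyruvate kinase and monocarboxylate transport overlapped. In MGCs hexokinase alone did not overlap (1.13-fold), where 7.72% of all single genes were higher without overlap. The other 12 steps had ratios from 0.851 to 1.28. The sums are a description, without a test.

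**Figure D3:**
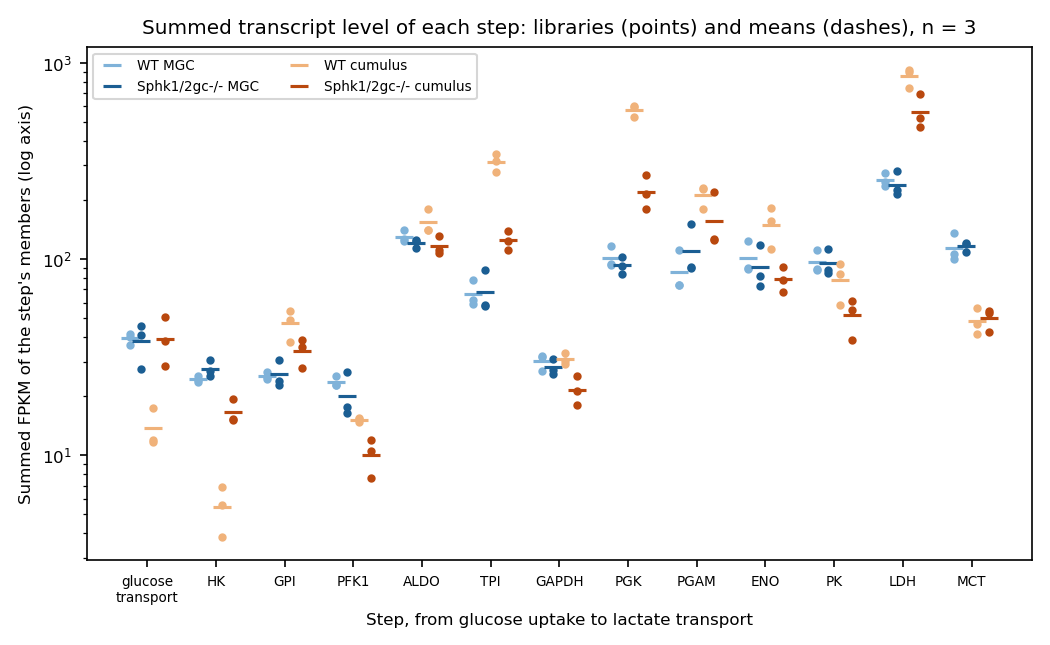
Summed FPKM of the members of each step (log axis) in every library (points) with the group means (dashes), n = 3 per group; HK is hexokinase, PFK1 phosphofructokinase 1, PK pyruvate kinase and MCT monocarboxylate transport. In WT cumulus cells hexokinase sits lowest, near 5.44 FPKM, and lactate dehydrogenase highest, at 851; the Sphk1/2gc-/- cumulus means lie above WT at the first 2 steps and below it from there to lactate dehydrogenase.

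Isoform use was read as the share of a member in its family's summed FPKM. Of 29 shares, 16 did not overlap between genotypes in cumulus cells and 2 did not in MGCs; in families of 2 genes the shares mirror each other. Each of these had p = 0.1 by an exact two-sided permutation test, the smallest that 3 against 3 libraries allow, so none could reach 0.05. Among those without overlap, the widest shift in cumulus cells was that of Pfkp, which held 57.6% ± 3.33 (SD, n = 3) of phosphofructokinase 1 FPKM in WT and 64.7% ± 2.28 in Sphk1/2gc-/-, at the expense of Pfkl (36.8% ± 2.07 and 30.2% ± 3.24). Pdk1 held 9.53% ± 1.74 of the kinases of pyruvate dehydrogenase in WT and 4.78% ± 0.936 in Sphk1/2gc-/-. The share of Eno3 was 1.40% ± 0.141 in WT and 2.98% ± 0.270 in Sphk1/2gc-/-, while its own FPKM overlapped.

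**Figure D4:**
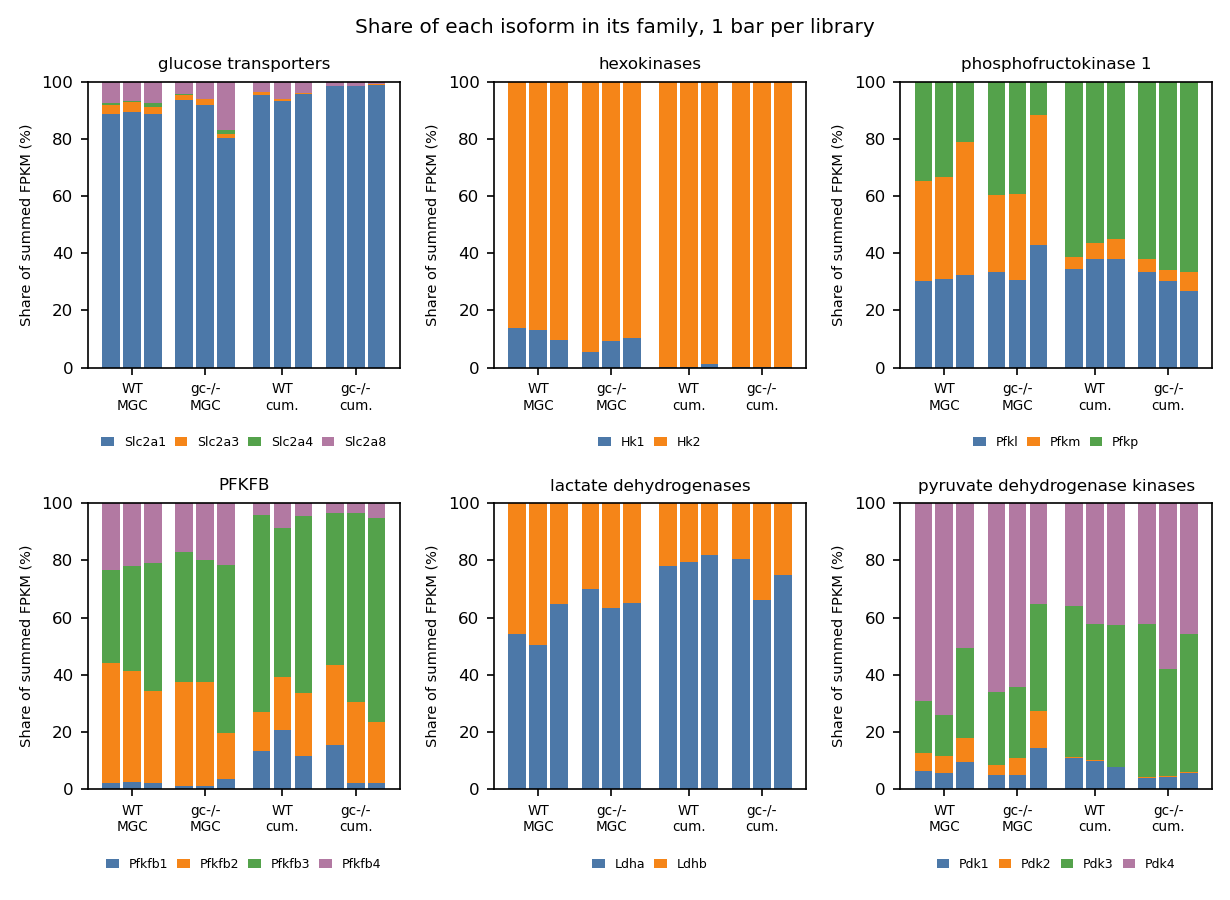
Share of each isoform in the summed FPKM of its family (%), 1 bar per library, for 6 families; groups from left to right are WT MGC, Sphk1/2gc-/- MGC, WT cumulus and Sphk1/2gc-/- cumulus, 3 libraries each. Hk2 fills nearly the whole hexokinase bar in cumulus cells, Pfkm and Pdk2 take larger shares in MGCs than in cumulus cells, and Pfkp and Ldha larger shares in WT cumulus cells than in WT MGCs.

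In MGCs none of the 39 member rows tested passed by limma, where 0.0393% of 15279 genes did (0.00654% as higher, 0.0327% as lower). By voom the count was also 0, and at an unadjusted p below 0.05 it was 1, Slc2a3 (GLUT3), which read 1.31, 1.44 and 0.974 FPKM in WT and 0.814, 0.766 and 0.428 in Sphk1/2gc-/-. In these libraries leukocyte markers summed to 165 to 313 FPKM in WT and 24.9 to 115 in Sphk1/2gc-/- (0 of 8 tested passed), endothelial markers to 14.4 to 18.3 and 8.26 to 10.5 (0 of 7) and erythroid markers to 262 to 404 and 30.7 to 292 (0 of 5), and their part in the values of Slc2a3 was not tested. Slc2a3 and Pdha1 were lower and Hk2 and Pfkfb3 higher without overlap, which is 4 of 39 beside 16.9% of all genes (7.72% higher, 9.17% lower). The median log2 difference over the members was -0.07, and single members lay between -0.72 (Pdk4) and 0.42 (Pfkfb3). Both MGC libraries numbered 3 bore on this result: without them 5 of 39 members passed, where 16.1% of all genes did in that fit (5.07% higher, 11% lower), Pgam1 as higher (log2 difference 0.29) and Pfkm, Ldhb, Pdk1 and Pdk4 as lower (-0.63, -0.76, -0.67 and -0.89). Pdk1 read 2.62, 2.77 and 2.33 FPKM in WT MGCs and 1.16, 1.49 and 3.87 in Sphk1/2gc-/- MGCs, so that library 3 was above all WT libraries and the other two below all of them.

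Whether the genotype difference itself differed between the cell types was tested in a fit of all 12 libraries, in which cell type cannot be told apart from the table and collection each cell type came in. There 5 of 40 members tested passed, beside 3.93% of 15869 genes (2.45% as higher, 1.48% as lower). Slc2a1 (1.57, SE 0.368, adjusted p = 0.0394) and Hk2 (1.25, SE 0.251, adjusted p = 0.0232) had the more positive genotype difference in cumulus cells. Aldoc (-1.47, SE 0.353, adjusted p = 0.0423), Tpi1 (-1.33, SE 0.262, adjusted p = 0.0224) and Pgk1 (-1.27, SE 0.235, adjusted p = 0.0183) had the more negative one. The calls were fragile: 0 of the 5 passed without WT MGC library 1, WT MGC library 2 or WT cumulus library 2, although their values kept their sign and lay between 1.06 and 1.77 or between -1.13 and -1.67 in all 12 fits without 1 library. With the replicate number as a block 6 members passed, Pfkfb2 being added (1.04, adjusted p = 0.0387), where 5.84% of all genes did.

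Between the WT cell types, WT cumulus cells had 4.83 times the mean FPKM of Ldha, 5.65 times that of Pgk1 and 4.70 times that of Tpi1 in WT MGCs, and 0.372 times that of Slc2a1 and 0.253 times that of Hk2. Of 40 member rows tested, 12 passed as higher and 19 as lower in cumulus cells, where 24.1% and 52.5% of all genes did. With 31 of 40 the members passed at about the share of all genes, 76.6%, so the count says nothing particular to them. The median over all genes was itself -0.54, and it moved to -0.16 with median-of-ratios scaling and to -1.05 with TPM, so single differences are best read against it. The higher to lower split of the members was 18 to 14 with the former scaling and 9 to 22 with the latter, and that of all genes 5524 to 6431 and 3145 to 9227, beside 3820 to 8336 as deposited. With FPKM as deposited, both rescalings and voom alike, 9 members were higher in cumulus cells (Gpi1, Tpi1, Pgk1, Pgam1, Ldha, Pdhb, Pdk3, Mpc2 and Taldo1) and 14 lower (Slc2a1, Slc2a3, Slc2a8, Hk1, Hk2, Pfkm, Pfkfb2, Pfkfb4, Eno1b, Eno2, Slc16a3, Pdk2, Pgd and Tkt).

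Isoforms of the same step stood at different levels in the libraries of the cell types. WT MGC libraries also held more transcripts that mark other cells. Theca and stroma markers summed to 196 to 378 FPKM there and 18.2 to 66.6 in WT cumulus cells, and oocyte markers to 36.9 to 95.2 and 4.25 to 7.33. Of those tested, 10 of 10 and 8 of 9 passed as lower in cumulus cells, where 52.5% of all genes did. Granulosa markers summed higher in MGCs too (9570 to 16201 against 4631 to 5880 FPKM). The part of other cells in the differences below was not tested. Hk1 read 3.31, 3.30 and 2.38 FPKM in WT MGCs and 0.0146, 0.00652 and 0.0868 in WT cumulus cells (log2 difference -1.94, SE 0.148, adjusted p = 2.08e-07). WT cumulus library 3 held the highest of these cumulus values, and without it the difference was -1.97. Pfkm was 7.98 to 11.9 FPKM in WT MGCs and 0.630 to 1.10 in WT cumulus cells, and Slc16a3, the transporter known for lactate export, 10.2 to 17.9 and 0.771 to 1.71. Of the pentose phosphate genes, Tkt (transketolase, 25.4 to 34.9 against 2.41 to 5.61 FPKM) and Pgd (16.2 to 19.4 against 2.42 to 2.83) were lower in cumulus cells. Taldo1 (transaldolase, 28.6 to 39.5 against 165 to 237 FPKM) was higher. Pdhb exceeded its partner subunit Pdha1 in both cell types, at 23.8 to 26.0 beside 8.83 to 9.20 FPKM in WT MGCs and 108 to 121 beside 3.94 to 4.56 in WT cumulus cells. Set beside these values, Tpi1, Pgk1 and Ldha in Sphk1/2gc-/- cumulus cells stayed above every MGC library (112 to 139, 179 to 267 and 311 to 557 FPKM), although each was below every WT cumulus library.

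Other genes around the pathway were read from lists. Of 22 further genes of glucose metabolism tested in cumulus cells, 3 passed as higher and 1 as lower, a share no larger than the 22.3% of all genes. Genes with the Pgm symbol moved in opposite directions. Under the mouse symbols of the annotation used here, Pgm2 was higher (log2 difference 1.46, adjusted p = 0.00516) and Pgm1 lower (-1.42, adjusted p = 0.0106). Pdp2, the phosphatase that reactivates pyruvate dehydrogenase, was higher (0.76, adjusted p = 0.00779), and so was Gpd2, the mitochondrial glycerol phosphate dehydrogenase (0.64, adjusted p = 0.0340). From a list of 26 HIF-1 pathway genes outside glycolysis, which holds the HIF subunits Hif1a, Arnt and Epas1 beside known targets, 20 were tested and these 3 did not pass (0.58, -0.28 and 0.14). Of the 20, 4 passed as higher (Bhlhe40, a transcriptional repressor, Vegfa, the vascular growth factor, and the lipid droplet genes Plin2 and Hilpda, at 0.90 to 1.30) and 2 as lower (the mitophagy receptors Bnip3, at -1.86, and Bnip3l, at -0.85), beside 9.66% and 12.7% of all genes. Of 18 tricarboxylic acid cycle genes tested, 0 passed by limma, 4 were below 0.05 before adjustment and 3 passed by voom, with a median of -0.22. In MGCs 0 genes of these 3 lists passed by limma or by voom, and 3, 4 and 0 of them were below 0.05 before adjustment.

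Genes that mark cell types were counted in cumulus cells too, where 9.66% of all genes passed as higher and 12.7% as lower. A count of 1 among 4 or 5 genes is too small to set apart from these shares. Of 10 granulosa markers, none of them at 0 throughout a group, 7 passed as lower in Sphk1/2gc-/- cumulus cells, their summed FPKM being 4631 to 5880 in WT and 3428 to 3644 in Sphk1/2gc-/-. Of 6 markers of expanding cumulus, 3 passed as higher (Ptx3, Tnfaip6 and Slc38a3), with sums of 260 to 587 and 1014 to 1231 FPKM. By its sum that list goes against the labels between cell types, since WT MGCs summed to 1012 to 1167 FPKM. By gene it was split, with 2 of the 6 passing as higher and 3 as lower in WT cumulus cells than in WT MGCs. The 3 mural markers, of which 2 passed as lower in Sphk1/2gc-/- cumulus cells, did separate the cell types (525 to 1158 FPKM in WT MGCs, 27.6 to 72.3 in WT cumulus cells). Erythroid markers summed to 4.37 to 27 FPKM in WT and 0.3 to 1.78 in Sphk1/2gc-/- cumulus cells, with 1 of 4 tested passing as lower and Hba-a2 at 0 in both. Theca and stroma markers summed to 18.2 to 66.6 and 12.0 to 33.7 FPKM (2 of 6 lower, Insl3 at 0 in both), leukocyte markers to 5.30 to 55.4 and 7.68 to 53.9 (1 of 5 lower), oocyte markers to 4.25 to 7.33 and 2.48 to 3.05 (1 of 4 lower), and the endothelial markers, none of them tested, to 0.276 to 0.975 and 0.211 to 0.405. The part of these markers in the results for the members was not tested.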

How the data were processed

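RNA-seq of mouse MGCs and cumulus cells was deposited by the authors as 1 table of expression values per cell type (29101 and 33137 genes). The deposited values are FPKM: no source used here names the unit, and it was inferred because value times exon length (GENCODE annotation of GRCm38) gave whole multiples of 1 read, within 0.02 reads, for 90.6% to 92.1% of values. The submitters' processing notes name HISAT2 and GRCm38. The counting tool, and whether counting used strand, are not given in the sources used here. Low genes have few reads behind them and short steps, so their FPKM is less precise. limma 3.58.1 (R 4.3.3), with an intensity trend, was fitted to log2(FPKM + 1) of all genes averaging 0.5 FPKM or more in a group, within each cell type for genotype and over all 12 libraries for the cell types and the difference of genotype effects. Shares within families were compared by exact permutation tests. Near-identical genes were found with blastn 2.17.0 (95% identity over 150 bases). Scripts were tested on simulated data. Deviations from the group means of same-numbered libraries correlated in MGCs (0.220, 0.158 and 0.224). The main fits did not pair libraries all the same, and the replicate number entered only as a block in an alternative fit. Alternatives were another pseudocount, no filter, other scalings, voom on recovered reads, the replicate block and leaving out libraries. The genes named are all members, from the other lists at most 6 per comparison among those that passed, and, chosen after their values were seen, the HIF subunits and the markers at 0. The members and lists were chosen with earlier results of these data known. FPKM of the cell types come from separate tables.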

Additional observations from a re-analysis of the deposited data

Results flagged for a closer look

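For 5 members the genotype difference in cumulus cells differed from that in MGCs by a test of the difference itself, in the limma fit of all 12 libraries on the log2(FPKM + 1) scale. The difference between the genotype differences was 1.57 for Slc2a1, the glucose transporter, which was higher in all 3 Sphk1/2gc-/- cumulus libraries than in any WT one and overlapped in MGCs. It was 1.25 for the hexokinase Hk2, which was higher in all 3 Sphk1/2gc-/- libraries in both cell types, though by only 0.23 in MGCs. It was -1.47 for Aldoc, -1.33 for Tpi1 and -1.27 for Pgk1, each lower in all 3 Sphk1/2gc-/- cumulus libraries and overlapping in MGCs. Cell type cannot be told apart from the table and collection here.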

How the results depend on the processing

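In cumulus cells 9 members passed (3 higher, 6 lower). Leaving out 1 library gave 6 to 18 (2 to 4 higher, 4 to 14 lower), 6 without WT library 2 and 18 without Sphk1/2gc-/- library 1. In these fits the share of all genes that passed also moved, from 10.8% to 31.9% (11.5% without WT library 2). Leaving out both libraries numbered 1 gave 20, 16 of them lower, where 26% of all genes passed (15.3% lower). In MGCs 0 passed with any 1 library left out, where at most 1.83% of all genes did. Without both libraries numbered 3 there were 5 (1 higher, 4 lower), beside 16.1% of all genes. For the difference of genotype effects, 5 passed (2 higher, 3 lower). Without a filter on level 3 did, 1 of them higher, and without 1 library 0 to 6 (0 to 2 higher, 0 to 4 lower). Of all genes 1.24% passed without the filter and 0.681% to 7.47% without 1 library. Between the WT cell types 31 passed, and 28 to 34 without 1 library (10 to 14 higher, 17 to 20 lower), where 71.5% to 80.7% of all genes did. Shares within families without overlap were 16 in cumulus cells, 16 to 21 without 1 library, and 2 in MGCs, 2 to 17 without 1 library, where fewer libraries make overlap rarer by construction. With the replicate number as a block 9 members passed in cumulus cells, 0 in MGCs, 32 between the WT cell types and 6 for the difference of genotype effects. The shares of all genes were 16.4%, 0.0196%, 76.3% and 5.84% in the same order. Cumulus libraries share only a number (correlations -0.148, -0.0511 and 0.115). Over single members and alternatives, 2271 values kept direction and side of the threshold, 66 lost it, 48 gained it, 97 changed sign with neither value past the threshold and 0 reversed a call. The cause was not tested. Members under about 0.5 FPKM rest on few reads, and a genotype difference there was not testable at this depth.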
